A study of Mus musculus with 4 samples.

Results

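Gata2-expressing progenitors of the bone marrow were compared between animals treated with tamoxifen plus rapamycin as neonates and animals that received only rapamycin, as juveniles. The cells were chosen by measured values: at least 1 unique molecular identifier (UMI, 1 counted RNA molecule) of Gata2 and 0 UMIs of Car1, Elane, Ebf1, Dntt, Flt3 and Csf1r, which mark other branches of blood formation. This gate held 2406 of 37717 kept cells from all 6 mice, and 1538 of those cells came from the 4 mice of the main comparison. Because Gata2 and the 6 zero genes selected the cells, their levels are described here and not tested.

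All 6 mice were females of the genotype Tppp3CreER LSLTdTomato, in which tamoxifen activates a Cre recombinase expressed with Tppp3 and Cre switches on the red reporter tdTomato. The first treatment, called neonatal rapamycin below, was tamoxifen together with rapamycin on postnatal days 0 and 3. The second, late rapamycin, was rapamycin alone on postnatal day 30, without tamoxifen. The third, tamoxifen, was tamoxifen alone on postnatal days 0 and 3 and served to place the other treatments. Each had n = 2 mice, 1 per processing day, and every mouse is labelled as 6 weeks old, although the series text also speaks of isolation after 2 weeks. The treatments compared therefore differ in tamoxifen as well as in the time of rapamycin, and these cannot be told apart. Cells came from lineage-negative fractions, with and without Sca1, and from whole marrow. The reporter marks only cells that expressed Tppp3 when tamoxifen was given, and it was not used here. Each day's 3 mice were marked with hashtag antibodies and run together.

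Gata2 is a zinc finger transcription factor that maintains haematopoietic stem cells and is used again in the early megakaryocyte, erythroid, mast cell and basophil branches. Rapamycin binds the immunophilin FKBP12, and the complex inhibits mTORC1, a kinase that couples nutrients and growth factors to protein synthesis. Chaperones such as the Hsp70 proteins help new and damaged proteins to fold, and heat shock factor 1 induces many of their genes.

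The hashtag oligos below tie every value to a mouse, and are shown because the mouse numbers of the labels conflict with the deposited hashtag table. The capitals are the whole 15-base oligo.

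Neonatal rapamycin, mouse 1: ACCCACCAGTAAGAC

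Neonatal rapamycin, mouse 2: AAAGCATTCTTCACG

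Late rapamycin, mouse 1: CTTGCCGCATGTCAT

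Late rapamycin, mouse 2: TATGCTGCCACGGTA

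Tamoxifen, mouse 1: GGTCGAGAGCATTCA

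Tamoxifen, mouse 2: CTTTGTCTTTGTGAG

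The hashtag table gives hashtags 1 and 4 to neonatal rapamycin and 2 and 5 to tamoxifen, and names the mice of hashtags 3 and 6 controls, which were read as late rapamycin. The labels number tamoxifen mice 1 and 4 and neonatal rapamycin mice 2 and 5. The table was followed. If the label numbers are hashtag numbers, neonatal rapamycin and tamoxifen are exchanged. Every level given below for one of these treatments would then belong to the other, and the difference between neonatal and late rapamycin would be the one given between late rapamycin and tamoxifen with its sign turned. The differences between gates and in subsets of the gate were not recomputed under that numbering.

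The gate held 430 and 360 cells in the neonatal rapamycin mice, 288 and 460 in the late rapamycin mice and 413 and 455 in the tamoxifen mice. Their summed UMIs ran from 1168328 in late rapamycin mouse 1 to 2519816 in late rapamycin mouse 2, and the median cell had 3084 to 4957 UMIs. As a share of kept cells the gate was 6.90% and 5.92% with neonatal rapamycin, 4.07% and 7.56% with late rapamycin, and 6.54% and 7.68% with tamoxifen. The mean was 6.41% ± 0.697 (SD, n = 2) with neonatal and 5.82% ± 2.46 (SD, n = 2) with late rapamycin. The difference was 0.596 percentage points, with 2.83 on day 1 and -1.64 on day 2 (exact two-sided permutation p = 1; the smallest p that 2 against 2 mice allow is 0.33). The late rapamycin mice lay on either side of both neonatal rapamycin mice, so no difference in the number of gated cells was detectable. Under the exchanged numbering the difference in share would be 1.29 percentage points.

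The label was checked against markers. Gata2 was at 394 ± 55.3 CPM (UMIs per 1e6 UMIs of the library; SD, n = 6) in the gate and 30.4 in the other kept cells, which the rule itself produces. Apoe, an apolipoprotein transcribed in early erythroid and megakaryocyte precursors and not used by the rule, was at 342 ± 54.4 CPM against 81.9, and higher in the gate in 6 of 6 mice. Muc13, Cpa3, Zfpm1, Nfe2, Tal1 and Lmo4 were also higher in the gate in all 6 mice. Gfi1b and Gata1 were higher in 2 of 6, Lyl1 in 3 of 6, and Car2 in 0 of 6. The gate was not a single stage. A UMI of at least 1 of the stem cell genes Procr, Mecom, Hlf, Mllt3, Fgd5 and Hoxb5 was present in 77.4% to 94.6% of its cells, and the 15 stem cell markers summed to 2995 to 3954 CPM. Early megakaryocyte genes (Pf4, Gp9, Gp1bb, Ppbp or Treml1) were found in 19.4% to 27.9% of the cells, early erythroid genes in 19.4% to 28.6%, basophil and mast cell genes in 6.67% to 12.2%, and genes of dividing cells in 50.6% to 64.1%. The cells are therefore called Gata2-gated cells, and most of them carried stem cell transcripts. At the edge of the rule, 56.7% to 66.6% of the gated cells had exactly 1 Gata2 UMI.

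Gata2 itself was at 470.5 and 381 CPM with neonatal rapamycin, 393 and 313 with late rapamycin, and 449 and 378 with tamoxifen (scaled by TMM, edgeR's normalisation, as are all gene levels from here on). Apoe was at 420.0 and 386 CPM with neonatal rapamycin, 362 and 317 with late rapamycin, and 265 and 317 with tamoxifen. Both neonatal rapamycin mice were above both late rapamycin mice in Apoe, but the log2 fold change of 0.25 ± 0.11 (SE) did not pass (edgeR adjusted p = 0.426).

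Late rapamycin mouse 1 stood apart from the other mice. Its neutrophil marker list, 15 genes, summed to 19300.0 CPM in the gate, against 2387 in late rapamycin mouse 2, 2315 and 1998 with neonatal rapamycin, and 4163 and 4380 with tamoxifen. Among single genes of neutrophil granules, Ltf (lactoferrin) was at 747 CPM in that mouse and 26.4 to 168 in the other 5, and Camp (cathelicidin) at 1504 and 123 to 478. The same mouse was highest outside the gate too, at 71730.0 CPM against 21720.0 to 27360.0. Its monocyte and dendritic list was also highest, at 873 CPM against 401 to 564. Neonatal rapamycin mouse 1 and tamoxifen mouse 1, which were run together with it, held 2315 and 4163 CPM of the neutrophil list in the gate. Whether these transcripts lie in the gated cells or are free RNA was not tested. B cell markers summed to 50.5 to 74.6 CPM, and Cd3e of T cells and Lepr of stroma were at 0 UMIs in all 6 mice.

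**Figure D1:**
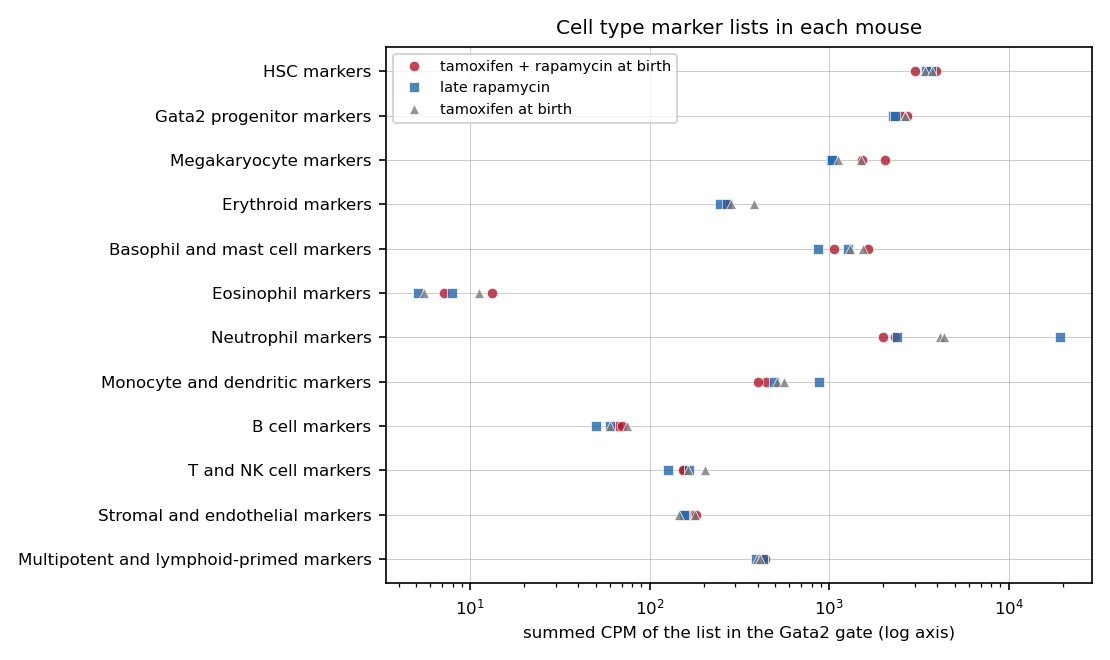
Summed CPM (log axis) of 12 cell type marker lists in the Gata2 gate, 1 point per mouse, coloured by treatment. Late rapamycin mouse 1 lies far to the right in the neutrophil row at 19300.0 CPM, and both neonatal rapamycin mice lead the megakaryocyte row at 2048 and 1522 CPM.

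Between neonatal and late rapamycin, 23 of 10642 genes passed edgeR's quasi-likelihood test at an adjusted p under 0.05, which is 0.216% of the genes tested. Of these, 15 were higher with neonatal rapamycin (0.141%) and 8 were lower (0.0752%). Platelet-lineage genes, the protease gene Ctse, the cold-inducible Cirbp and several signalling genes were higher. Heat shock chaperones, the dynein light chain Dynll1, the ribosomal Rplp0 and a histone gene were lower. Among all genes, 1193 had an unadjusted p under 0.05, and DESeq2 called 8. These 8 were Ctse, Nxpe5, Plek, Hspa8, Dnaja1, Dynll1, Rplp0 and the predicted gene model Gm35082. The rest of the 23 passed in edgeR only. Cavin2, Cirbp, Hsph1 and Hspe1 were among them (DESeq2 adjusted p = 0.355, 0.724, 0.476 and 0.773). The spread rested on few mice: with neonatal rapamycin mouse 1 left out 1 gene was called and with mouse 2 left out 0 (808 at an unadjusted p under 0.05), while 200 and 425 were called without late rapamycin mouse 1 or 2. All 23 kept their sign in each of those fits. In each of the 23, both neonatal rapamycin mice lay on the same side of both late rapamycin mice. Leaving out 1 mouse could therefore hardly turn a sign, and the kept signs are no added support. The separation is none either, since groups of 2 mice can easily separate without any effect of treatment.

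Cathepsin E, encoded by Ctse (chr1:131638306-131675505, plus strand, GRCm38), is an aspartic protease of the endosomal pathway. It was at 145 and 163 CPM with neonatal rapamycin, 54.9 and 59.7 with late rapamycin, and 67.8 and 77.5 with tamoxifen. The neonatal rapamycin mice were above all 4 others, and the groups did not overlap. The log2 fold change over late rapamycin was 1.43 ± 0.12 (SE; edgeR adjusted p = 0.0008279), the smallest adjusted p of the 23. Over tamoxifen it was 1.08 (adjusted p = 0.00701). Of 45 lysosome and autophagy genes tested, Ctse alone passed, and the median of the list was -0.01 against -0.00 over all genes tested.

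Nxpe5, a member of the neurexophilin and PC-esterase domain family (chr5:138225898-138253363, plus strand), had the largest change among the called genes other than predicted gene models. It was at 33.2 and 50.9 CPM with neonatal rapamycin, 5.32 and 7.11 with late rapamycin, and 6.23 and 8.34 with tamoxifen. It rose by 2.76 ± 0.28 (log2, SE; edgeR adjusted p = 0.00372) over late rapamycin and by 2.52 (adjusted p = 0.00701) over tamoxifen. Here too the neonatal rapamycin mice stood above the other 4, which overlapped each other. Under the exchanged numbering, these high levels of Ctse and Nxpe5 would belong to tamoxifen alone.

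The next genes belong to platelets and their precursors. Cavin2, a coat protein of caveolae that platelets also carry (chr1:51289126-51302960, plus strand), was at 120 and 94.7 CPM with neonatal rapamycin. It was at 61.1 and 43.9 with late rapamycin, and at 55.4 and 42.2 with tamoxifen. Its log2 fold change was 1.04 ± 0.13 over late rapamycin (SE; edgeR adjusted p = 0.0115) and 1.14 over tamoxifen (adjusted p = 0.0126). Plek encodes pleckstrin, a major protein kinase C substrate of platelets (chr11:16971206-17052381, minus strand). It was at 276 and 199 CPM with neonatal rapamycin, 118 and 121 with late rapamycin, and 217 and 179 with tamoxifen. Its log2 fold change was 0.95 ± 0.12 (SE; edgeR adjusted p = 0.0115), and the tamoxifen mice overlapped the neonatal rapamycin mice.

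All 12 tested members of the megakaryocyte list (of 18 listed) were above 0, with a median log2 fold change of 0.50 where the median of all genes was -0.00. Cavin2 and Plek were the 2 that passed. Pf4 encodes platelet factor 4, a chemokine of platelet granules. It was at 739.6 and 404 CPM with neonatal rapamycin, 198 and 251 with late rapamycin, and 457 and 199 with tamoxifen (1.20 ± 0.25 over late rapamycin, edgeR adjusted p = 0.116). Mmrn1, the gene of multimerin, was at 64.5 and 82.1 CPM against 26.6 and 44.3 (0.99 ± 0.19, adjusted p = 0.0748). Rap1b, a small GTPase of platelet integrin activation, was at 502 and 427 CPM against 371 and 300.3 (0.47 ± 0.08, adjusted p = 0.0605). In all 3 the groups did not overlap, but the test was not passed. With 2 mice per treatment, groups can easily separate without any effect of treatment. The share of all genes tested that separate in this way is not given here. Separation is therefore a description of the levels, here and for other genes, and adds no support to the test. Vwf, the gene of von Willebrand factor, differed by 0.34 ± 0.19, and Itga2b, the early megakaryocyte integrin, by 0.10 ± 0.12. A list of 22 genes of platelet-biased stem cells shares Cavin2 and Plek with it. Of its 18 tested members these 2 passed, 15 were above 0, and the median was 0.35. With late rapamycin against tamoxifen the median of the megakaryocyte list was -0.11, so under the exchanged numbering it would be nearer 0 than 0.50. Both lists were chosen with results of these libraries known. In sums over a gate, more cells of a kind and more RNA per cell cannot be told apart.

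Serpine2 (protease nexin 1) was at 56.5 and 36.0 CPM with neonatal rapamycin, 13.3 and 12.6 with late rapamycin, and 26.3 and 12.8 with tamoxifen (1.73 ± 0.25, edgeR adjusted p = 0.0232). Slc14a1, a urea transporter, was at 171 and 156 CPM against 78.9 and 102 (0.81 ± 0.13, adjusted p = 0.0314), with tamoxifen between them at 131 and 122. Tns1, the focal adhesion protein tensin 1, was at 114 and 112 CPM against 55.8 and 68.7 (0.83 ± 0.13, adjusted p = 0.0306). In these 3 genes the late rapamycin mice were the low end or shared it with 1 tamoxifen mouse. Gimap6, a GTPase of the immunity-associated family, was at 123 and 171 CPM against 55.8 and 111 (0.81 ± 0.13, adjusted p = 0.0314). Eya2, a transcriptional coactivator, was at 123 and 148 CPM against 68.2 and 96.8 (0.70 ± 0.11, adjusted p = 0.0314). Inpp4b, a lipid phosphatase of phosphoinositide signalling, was at 323 and 283 CPM against 235 and 183 (0.55 ± 0.09, adjusted p = 0.0474). In each of them both neonatal rapamycin mice lay above both late rapamycin mice.

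**Figure D2:**
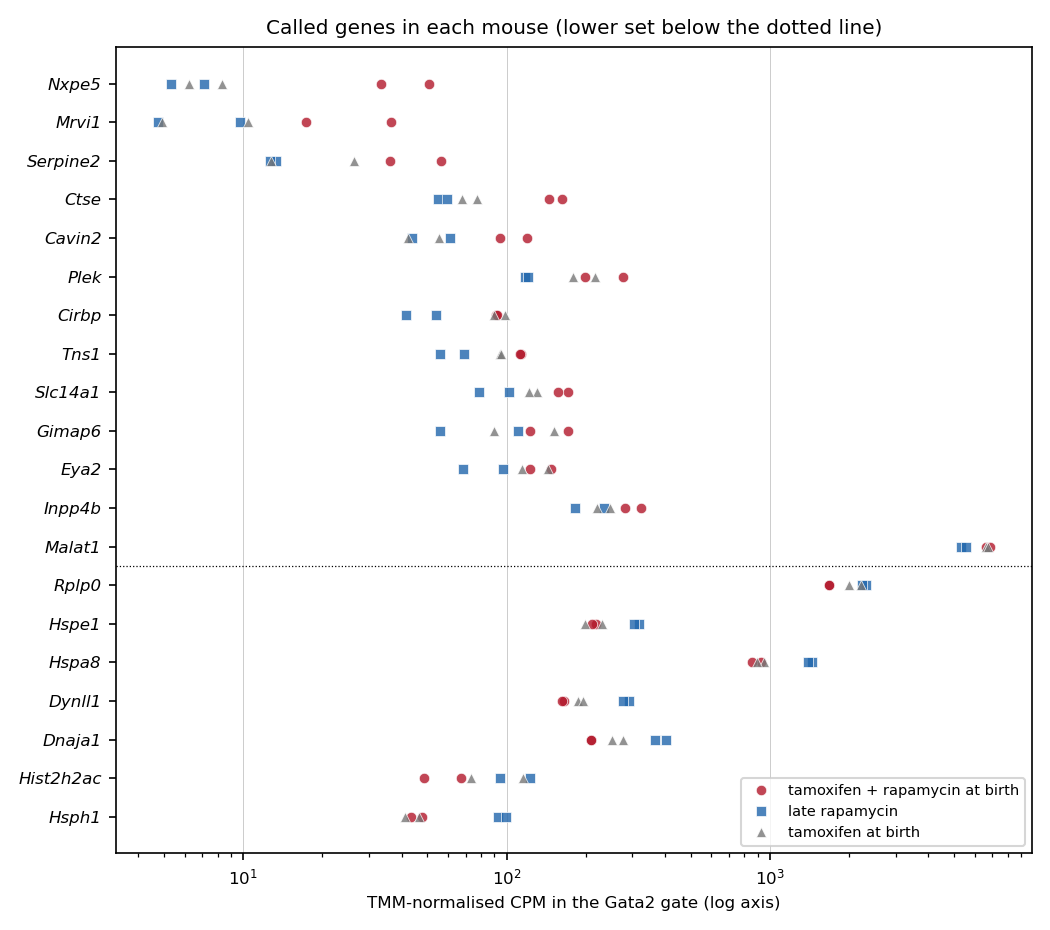
TMM-normalised CPM (log axis) in the Gata2 gate of the 20 called genes other than predicted gene models, 1 point per mouse. Red and blue points separate in every row, and the grey tamoxifen points lie with late rapamycin for Ctse, Nxpe5 and Cavin2 but with neonatal rapamycin for Hspa8, Hsph1, Hspe1, Cirbp and Malat1.

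The lower genes were led by chaperones. Hspa8 (chr9:40800984-40810087, plus strand) encodes the constitutive Hsp70 protein Hsc70. It was at 926 and 853 CPM with neonatal rapamycin, 1439.8 and 1389.6 with late rapamycin, and 953 and 894 with tamoxifen. Late rapamycin was the high group, while neonatal rapamycin and tamoxifen overlapped. Hspa8 was lower with neonatal than with late rapamycin, at a log2 fold change of -0.67 ± 0.07 (SE; edgeR adjusted p = 0.00466). Late rapamycin exceeded tamoxifen by 0.62 (adjusted p = 0.0115).

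Dnaja1 (chr4:40722150-40737149, plus strand) encodes an Hsp40 cochaperone that delivers clients to Hsp70. It was at 209.99 and 209 CPM with neonatal rapamycin, 367 and 402 with late rapamycin, and 278 and 251 with tamoxifen. The 3 treatments did not overlap, with tamoxifen between the others. The log2 fold change was -0.88 ± 0.10 (SE; edgeR adjusted p = 0.00466). Hsph1 (chr5:149614287-149636376, minus strand) encodes Hsp105, a nucleotide exchange factor of Hsp70. It was at 43.2 and 48.0 CPM with neonatal rapamycin, 93.0 and 99.2 with late rapamycin, and 46.4 and 41.2 with tamoxifen. Its log2 fold change was -1.08 ± 0.15 (SE; edgeR adjusted p = 0.0172), and late rapamycin exceeded tamoxifen by 1.15 (adjusted p = 0.0175). Hspe1 (chr1:55088132-55091307, plus strand) encodes the mitochondrial cochaperonin Hsp10. It was at 219 and 210.4 CPM with neonatal rapamycin, 317 and 306 with late rapamycin, and 230 and 199 with tamoxifen (-0.54 ± 0.09, adjusted p = 0.0474). For Hspa8, Hsph1 and Hspe1 the tamoxifen mice lay with the neonatal rapamycin mice.

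Of 34 chaperone genes tested, 33 were below 0 and 4 passed, all 4 lower. The median of the list was -0.27, at -0.18 on day 1 and -0.29 on day 2. Over all genes tested the median was -0.00 and 0.216% were called. This list too was chosen with results of these libraries known, so its counts are a description and no independent support. Of the members that did not pass, Hspa5, the Hsp70 of the endoplasmic reticulum, was at 328 and 276 CPM with neonatal and 411 and 499.8 with late rapamycin (-0.61 ± 0.12, edgeR adjusted p = 0.0952). Hsp90ab1, the most abundant by UMIs, differed by -0.10 ± 0.06. The inducible Hsp70 gene Hspa1b was low, at 3.32 and 5.99 CPM against 18.6 and 12.6 (-1.64 ± 0.45, adjusted p = 0.231). With late rapamycin against tamoxifen the median of the same list was 0.29, and with neonatal rapamycin against tamoxifen 0.00. These contrasts share their mice with the main one, so the values stand side by side and are not independent.

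**Figure D3:**
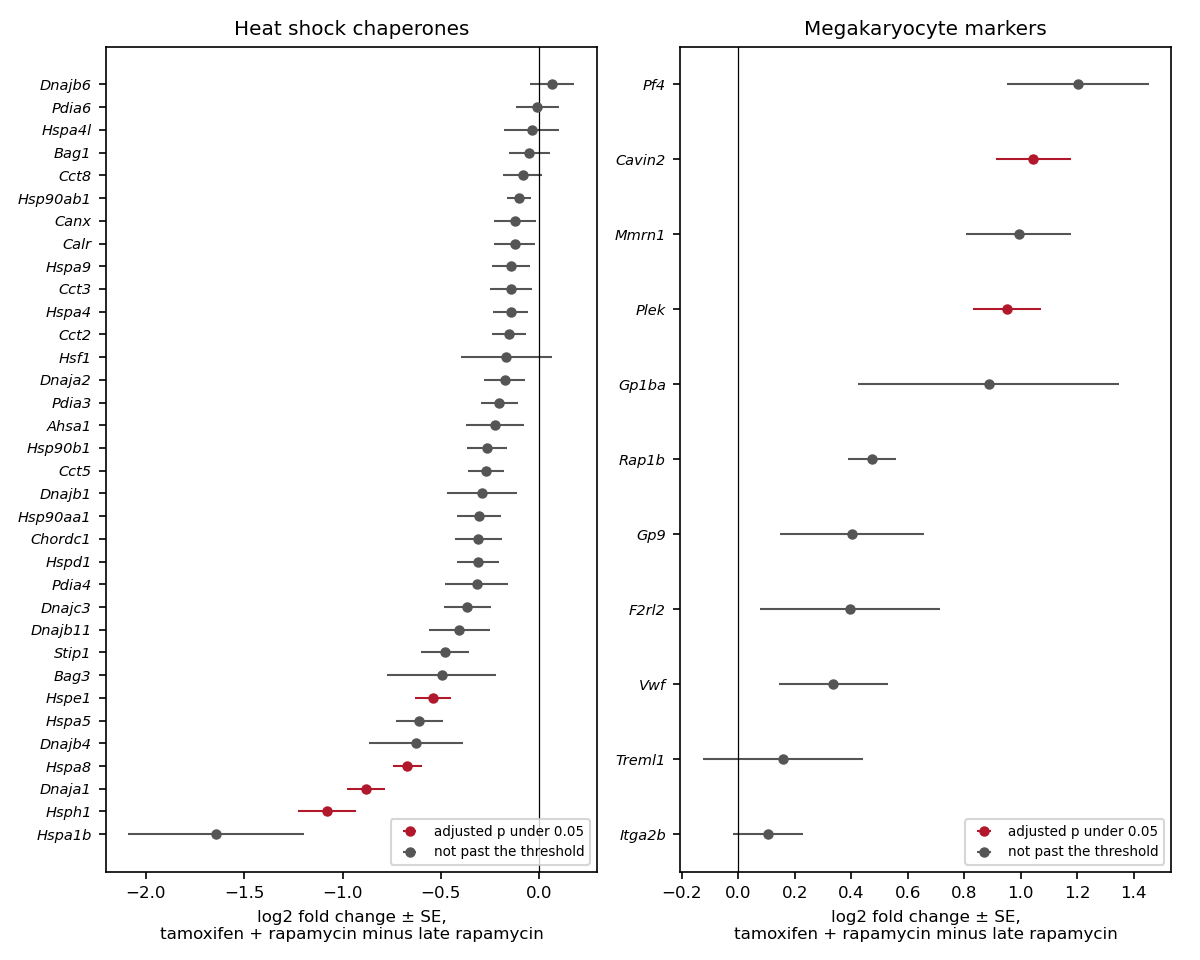
Fitted log2 fold changes ± SE, neonatal minus late rapamycin, for the 34 tested chaperone genes and 11 of the 12 tested megakaryocyte genes, with called genes in red. All megakaryocyte points drawn lie right of 0, and all chaperone points except Dnajb6 lie left of it.

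The letters of a heat shock element, inverted GAA triplets 2 bases apart (GAANNTTC or TTCNNGAA, both strands, overlaps allowed), were sought in the 250 bases before each RefSeq start. They occur in 12.8% of all 32851 such windows and in 12.1% of the 8524 tested genes that have a window. Of the 34 chaperone genes 29 had a window, and 9 of these held a match (31.0%). Of the 12 tested megakaryocyte genes, which differed the other way, 10 had a window and 3 a match (30.0%). Of the called lower genes, 5 had a window and 3 a match. These 3 are shown because they are called chaperone genes. The sequences are 30 bases from RefSeq (GRCm38.p6), written 5′ to 3′ on the gene's strand, with the matched letters in capitals.

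Hspe1: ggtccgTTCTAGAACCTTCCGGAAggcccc

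Hsph1: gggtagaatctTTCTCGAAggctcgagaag

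Dnaja1: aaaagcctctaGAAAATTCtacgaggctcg

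The Hspe1 site (chr1:55088053-55088082, plus strand) held 3 overlapping matches, the first of which begins 89 bases before the start. The Hsph1 site (chr5:149636351-149636380, minus strand) begins its match 33 bases and the Dnaja1 site (chr4:40722333-40722362, plus strand) 124 bases before a RefSeq start. From another start of Hsph1 the same match begins at -54. The windows of Dnaja1 starts further downstream (chr4:40722672-40722921 and chr4:40722680-40722929) held 0 matches. Among the called higher genes, 2 of 12 with a window held a match (16.7%). For GATA factors the letters AGATAA or TGATAA, either strand, occur in 16.6% of windows and in 11.3% of the tested genes that have one. They were found in 3 of the 10 megakaryocyte genes (30.0%), in 2 of the 29 chaperone genes (6.90%) and in 1 of the 12 called higher genes, Mrvi1. A match is a run of letters and was not tested as a binding site.

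Dynll1, a light chain of dynein and a hub protein of many complexes (chr5:115297110-115300999, minus strand), was at 165 and 163 CPM with neonatal rapamycin. It was at 292 and 277 with late rapamycin, and at 188 and 196 with tamoxifen. Its log2 fold change was -0.79 ± 0.09 (SE; edgeR adjusted p = 0.00747). Rplp0, a stalk protein of the large ribosomal subunit, lies on the same chromosome (chr5:115559467-115563727, plus strand). It was at 1673 and 1679 CPM with neonatal rapamycin, 2316 and 2239 with late rapamycin, and 2224 and 2003 with tamoxifen (-0.44 ± 0.07, adjusted p = 0.0264). Of 82 ribosomal protein genes tested Rplp0 alone passed, and the list's median was -0.02. Hist2h2ac, a histone H2A gene whose near-identical copies can share reads, was at 67.1 and 48.6 CPM against 123 and 94.8 (-0.93 ± 0.13, adjusted p = 0.0229). Reads of the pseudogene-rich Hspa8, Hspe1 and Rplp0 can also be split by counting.

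Cirbp, a cold-inducible RNA-binding protein, was at 91.0 and 92.3 CPM with neonatal rapamycin, 41.6 and 53.7 with late rapamycin, and 90.0 and 98.6 with tamoxifen. The late rapamycin mice were the low pair. Cirbp was higher with neonatal rapamycin by 0.91 ± 0.14 (SE; edgeR adjusted p = 0.0291), and late rapamycin was 0.95 below tamoxifen (-0.95, adjusted p = 0.0308). Its relative Rbm3 was at 455 and 449 CPM with neonatal, 412 and 343 with late rapamycin and 644 and 554 with tamoxifen (0.27 ± 0.09 against late rapamycin, adjusted p = 0.320). Of 7 cold-inducible genes tested Cirbp alone passed. Malat1, a nuclear non-coding RNA, was at 6612 and 6874 CPM with neonatal rapamycin, 5298 and 5540.0 with late rapamycin, and 6641 and 6708 with tamoxifen (0.32 ± 0.05, adjusted p = 0.0264).

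Set beside the tamoxifen mice, the called genes differed in which treatment was extreme. Between neonatal rapamycin and tamoxifen 6 of 10642 genes passed (0.0564%), and between late rapamycin and tamoxifen 21 did (0.197%). With neonatal rapamycin, Ctse, Nxpe5 and Cavin2 were higher and the predicted gene model Gm49692 was lower than with both late rapamycin and tamoxifen, and all 4 passed in both contrasts. Hspa8, Hsph1, Hspe1, Dynll1, Cirbp, Malat1 and both other predicted gene models were called between late rapamycin and tamoxifen as well. Exchanging neonatal rapamycin and tamoxifen as the labels' numbers would, 21 genes were called, and these 8 were the ones shared with the 23. The other 15, among them Ctse, Nxpe5, Plek, Serpine2, Dnaja1 and Rplp0, did not pass then. Cavin2 then stood at -0.09, so its direction rests on the hashtag table. Genes outside the 23 and called only against tamoxifen included Angpt1, a growth factor of the stem cell niche. It was at 1869.5 and 2779 CPM with late rapamycin and 3335 and 3712 with tamoxifen (-0.62, adjusted p = 0.0230).

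A further 4 called genes fall outside the rule for naming, and are given here after their values were seen. Mrvi1, a substrate of cGMP-dependent kinase in smooth muscle and platelets, was at 36.5 and 17.4 CPM with neonatal rapamycin, 9.75 and 4.74 with late rapamycin, and 10.4 and 4.91 with tamoxifen (1.88 ± 0.31, edgeR adjusted p = 0.0417). The non-coding gene models Gm15915 and Gm35082 had 0 UMIs in both late rapamycin mice. They had 14 and 25 UMIs, and 19 and 20 UMIs, with neonatal rapamycin. Against a floor of 3 UMIs over both late rapamycin mice, each was at least 15.03-fold higher. Gm15915 is annotated antisense within Ntn4, and whether the strand was used in counting is not given in the sources used here. Gm49692 was at 1.33 and 1.80 CPM with neonatal and 13.3 and 27.3 with late rapamycin, and 24.2 and 18.6 with tamoxifen.

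Gene groups tied to the drug and to growth held few calls. With 0.216% of all genes tested called, 0 calls in lists of this size does not set them apart. Of 36 tested genes of the mTOR complexes and their regulators, 31 mTORC1 effectors and translation factors, and 10 FKBP immunophilins, 0 passed, with medians of 0.11, -0.01 and -0.03. Their counts at an unadjusted p under 0.05 were 4, 6 and 3, and DESeq2 called 0 in each. Over all 10642 genes tested, 1193 had an unadjusted p under 0.05. Pdcd4, an inhibitor of translation that S6 kinase marks for decay, came closest, at 452 and 393 CPM against 272 and 298 (0.55 ± 0.10, edgeR adjusted p = 0.0616). Among 42 S phase genes 38 were below 0 (median -0.23, 0 called, 15 at an unadjusted p under 0.05). The 38 G2 and mitosis genes were more evenly split, with 23 below 0 and 14 above (median -0.06, 0 called). Of these, 1 higher and 1 lower had an unadjusted p under 0.05. Among 76 nuclear genes of oxidative phosphorylation 66 were below 0 (median -0.13, 0 called, 16 at an unadjusted p under 0.05). Among 27 genes of the ATF4 and amino acid response list 22 were below 0 (median -0.23, 0 called, 5 at an unadjusted p under 0.05). Cells with a UMI of a division gene made up 53.7% and 50.6% of the gate with neonatal rapamycin, 59.7% and 64.1% with late rapamycin, and 54.2% and 50.6% with tamoxifen. Such a share also depends on depth, for which it was not corrected. The median gated cell had 3084 and 3966 UMIs with neonatal rapamycin, 3619 and 4957 with late rapamycin, and 3089 and 3906 with tamoxifen. Whether this share has a part in the S phase and chaperone values was not tested.

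MHC class II genes were low, and all 8 tested were above 0 with 0 called (5 at an unadjusted p under 0.05, against 1193 of all 10642 genes). H2-Aa, an alpha chain that presents antigen, was at 15.9 and 15.6 CPM with neonatal rapamycin, 1.77 and 5.93 with late rapamycin, and 13.8 and 17.7 with tamoxifen (1.85 ± 0.42, edgeR adjusted p = 0.139). The late rapamycin values rest on 2 and 15 UMIs. Neutrophil markers were split in direction. Of 13 tested, 8 were below 0 and 5 above, and 0 passed in edgeR or DESeq2 (7 lower and 4 higher at an unadjusted p under 0.05). The median was -2.26, at -3.00 on day 1 and -0.28 on day 2. Above 0 were Mpo (0.56), Prtn3 (0.91) and Ctsg (0.47), which encode enzymes of the primary granules that form early in neutrophil development, and Gstm1 (0.69) and Ms4a3 (0.21). Among the genes below 0, late rapamycin mouse 1 was by far the highest in Ltf, Camp, Ngp and Chil3, but late rapamycin mouse 2 was also above both neonatal rapamycin mice in each. Ltf, for example, was at 102 CPM in mouse 2 and at 65.8 and 26.4 with neonatal rapamycin. Chil3, a chitinase-like protein of neutrophils and macrophages, was at 16.6 and 5.39 CPM against 275 and 35.6 (adjusted p = 0.0837).

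The difference was refitted in subsets of the gate, split by transcripts that are themselves expression readouts. Without the cells that had a UMI of Pf4, Gp9, Gp1bb, Ppbp or Treml1, Cavin2 differed by 0.13 ± 0.36 (SE; edgeR adjusted p = 0.944), Slc14a1 by 0.52 (adjusted p = 0.423) and Plek by 0.76 (adjusted p = 0.0579). Ctse (1.51), Nxpe5 (3.09), Hspa8 (-0.66) and Dnaja1 (-0.86) passed without them, and 17 of the 21 called genes still tested did. Megakaryocyte-gene cells made up 24.0% and 23.1% of the gate with neonatal rapamycin, 19.4% and 26.3% with late rapamycin, and 20.1% and 27.9% with tamoxifen, so their shares overlapped.

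Restricted to cells with a stem cell gene, all 23 genes passed again among 53 called. Without cells that had a division gene, 5 genes passed: Cavin2 (2.46 ± 0.32), Pf4 (2.42 ± 0.26), Plek (1.18), Ctse (1.29) and Malat1 (0.25). Hspa8 was then at -0.42 ± 0.11 and Hsph1 at -0.64 ± 0.32, and neither passed. In the division-gene cells alone Hspa8 was at -0.69 ± 0.08 and Hsph1 at -1.16 ± 0.16, and both passed among 67 called. The difference between those subsets was not tested. In the cells without a stem cell gene, which were few, 1 gene passed (Pf4, 1.93), and Hsph1 stood at 0.07.

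**Figure D4:**
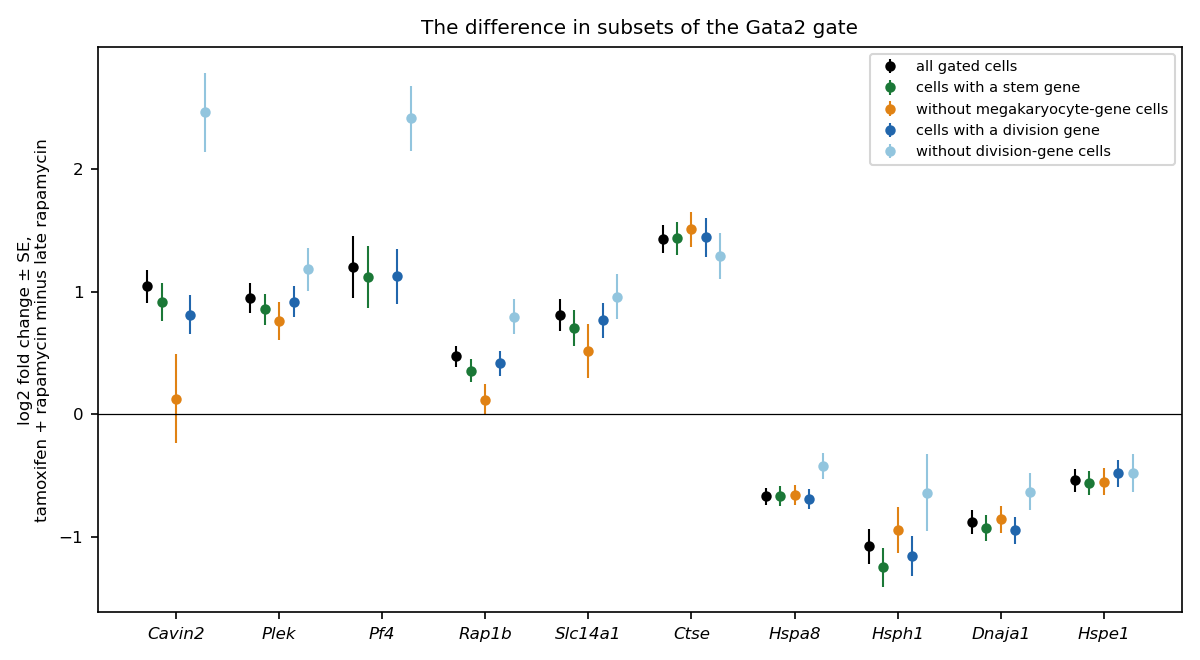
Log2 fold change ± SE, neonatal minus late rapamycin, of 10 genes in all gated cells and in subsets defined by other transcripts. Cavin2 falls to 0.13 without megakaryocyte-gene cells and reaches 2.46 without division-gene cells, while Ctse keeps a value between 1.29 and 1.51 in every subset drawn. No value is drawn for Pf4 without megakaryocyte-gene cells, because Pf4 defines that subset.

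The same difference was compared with that in 2 other gates of the same mice. The Flt3 gate held 4969 cells (Flt3 present, Gata2, Car1, Elane, Ebf1, Dntt and Csf1r at 0 UMIs). The Car1 gate held 3737 cells (Car1 present, the others of the list apart from Gata2 at 0). Between the Gata2 and the Flt3 gate, the difference itself differed for 26 of 11781 genes (0.221%), and between the Gata2 and the Car1 gate for 11 of 12171 (0.0904%). In most called genes the difference between gates did not pass, which does not show that the gates were alike. Hspa8 was at -0.67 in the Gata2 gate, -0.60 ± 0.09 in the Flt3 gate and -0.74 ± 0.06 in the Car1 gate. Hsph1 was at -1.08, -1.45 ± 0.13 and -0.58 ± 0.09, and Nxpe5 at 2.76, 1.93 ± 0.22 and 2.03 ± 0.50. Hspe1 was at -0.54, -0.56 ± 0.11 and -0.11 ± 0.05, and Dnaja1 at -0.88, -0.68 ± 0.09 and -0.42 ± 0.09. The median of the chaperone list was -0.27, -0.29 and -0.11 in the same order.

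Ctse rose more in the Gata2 gate than in the Car1 gate, at 1.43 against 0.54 ± 0.05 (difference 0.90, edgeR adjusted p = 0.000837), and stood at 1.13 ± 0.11 in the Flt3 gate. Slc14a1 was at 0.81 in the Gata2 gate and 0.02 ± 0.09 in the Car1 gate (difference 0.78, adjusted p = 0.0255), but at 0.80 ± 0.20 in the Flt3 gate. Against the Flt3 gate, the platelet genes Pf4 (difference 2.27 ± 0.36, adjusted p = 0.000517), Rap1b (0.48 ± 0.11, adjusted p = 0.0334) and Mrvi1 (2.92 ± 0.64, adjusted p = 0.0220) differed. Cavin2 did not pass the low-count filter of the Flt3 gate. The median of the megakaryocyte list was 0.69 in the Car1 gate, 0.50 in the Gata2 gate and 0.11 in the Flt3 gate. Plek stood at 1.08 ± 0.24 in the Car1 gate against 0.95 in the Gata2 gate, and Cavin2 at 0.93 ± 0.69 against 1.04. The granule genes Ltf, Camp, Ngp and Chil3 differed from both gates, and late rapamycin mouse 1 had the highest level of each in the Gata2 gate.

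**Figure D5:**
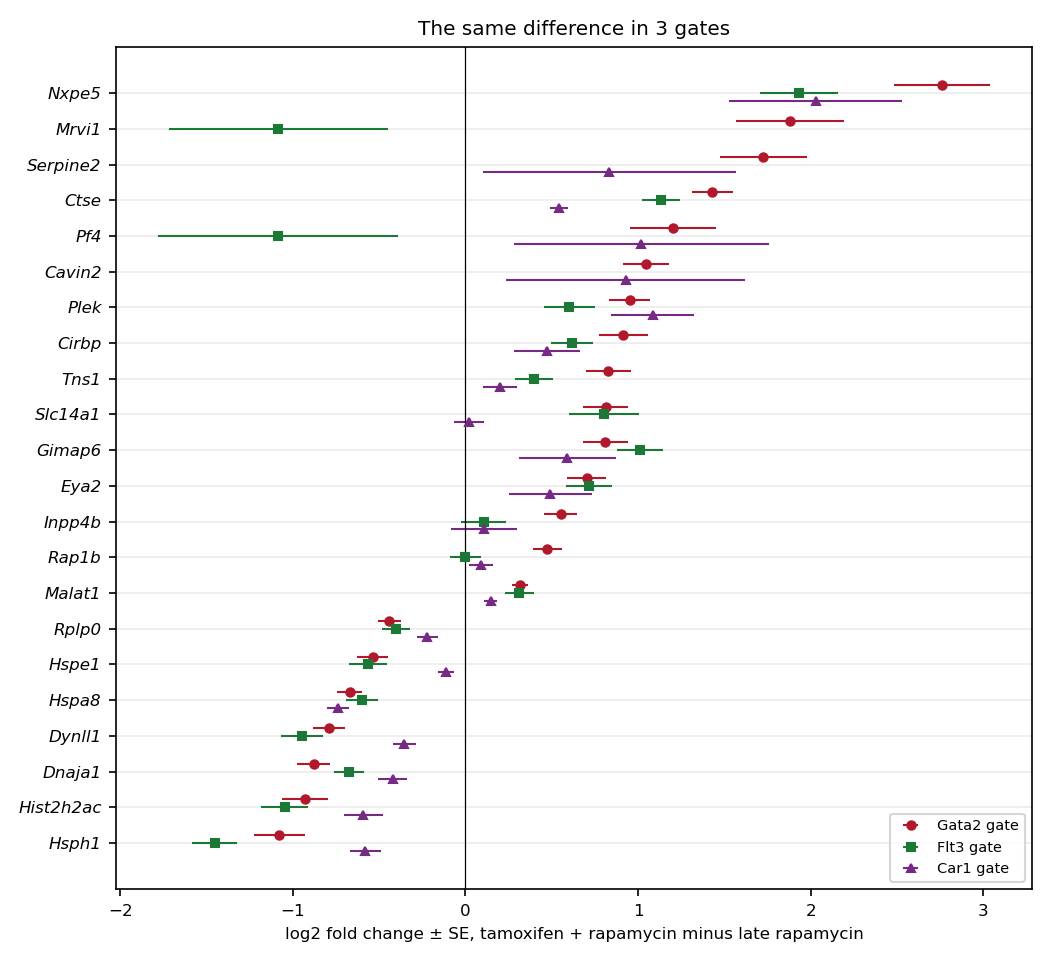
Log2 fold change ± SE, neonatal minus late rapamycin, of 20 called genes and of Pf4 and Rap1b in the Gata2, Flt3 and Car1 gates of the same mice. Chaperone genes lie left of 0 in all 3 gates, and Slc14a1 lies at 0.02 in the Car1 gate. Pf4 and Mrvi1 lie at -1.09 ± 0.70 and -1.08 ± 0.64 in the Flt3 gate, where neither passed.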

How the data were processed

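Each day's deposited matrix gives raw UMI counts for genes and hashtags, written by Cell Ranger 8.0.1 per the file headers, whereas version 7.0.0 of Cell Ranger and mm10 stand in the submitters' processing notes. Whether intronic reads or strand entered the counting is not given in the sources used here. The authors' matrices held 25058 and 21409 barcodes, of which 126 were shared between days and 0 among gated cells. Cells were kept with at least 500 genes, at least 1000 UMIs, at most 10% mitochondrial UMIs and 80% of hashtag UMIs from 1 hashtag (19619 and 18098 cells). Hashtag purity removes barcodes with mixed hashtags, and doublets within a mouse were not removed.

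Counts of gated cells were summed per mouse and tested in edgeR 4.0.16 (R 4.3.3; quasi-likelihood, TMM, filterByExpr, two-sided, Benjamini-Hochberg over all genes tested, threshold 0.05). All 6 mice shared 1 spread, with treatment and day as terms, since 1 mouse of each treatment was pooled on each day (correlations of same-day deviations 0.208, 0.143 and 0.077 over 7720 genes). Differences between gates used sums of both gates with mouse as a block. DESeq2 1.42.0 was run beside it. The scripts were tested on simulated data. Day values are differences of log2 CPM after adding 1. Summed marker lists and the Gata2 and Apoe marker check use plain CPM. Shares were compared by exact permutation. The intervals of shares and the floor of 3 UMIs cover counting error only.

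Named genes were up to 14 called genes in each direction, of the same sign on both days and with a mean of at least 20 CPM, and up to 3 called members of each list or the member with the smallest p. Predicted gene models, mitochondrial genes and Xist were counted and not named under that rule. The values of 1 megakaryocyte list member are not reported here. Genes given beside them were chosen after their values were seen. The cells, comparison and lists were chosen with earlier results of these data known. Promoter letters came from RefSeq (GRCm38.p6) and gene positions from GENCODE on GRCm38. Alternatives covered normalisation, tool, low-count filter, day block, samples, cell filters, subsets of the gate, equal cell numbers and the hashtag reading.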

Additional observations from a re-analysis of the deposited data

Results flagged for a closer look

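Several genes changed by different amounts in the Gata2 gate and in another gate of the same mice, by edgeR's test of the difference itself (log2, Gata2 gate minus the other gate). Against the Car1 gate, Ctse differed by 0.90 and Slc14a1 by 0.78. Against the Flt3 gate, the platelet genes Pf4 (2.27), Rap1b (0.48) and Mrvi1 (2.92) differed, as did H2-Aa of MHC class II (2.05), the transcription factor gene Tox (0.72), the fucosyltransferase gene Fut8 (0.38) and Car2 (-0.42). Pf4, Rap1b and Mrvi1 were not among the genes that differed from the Car1 gate. H2-Aa rests on 2 and 15 UMIs in the late rapamycin mice.

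Neutrophil genes differed from both gates: Ltf by -1.54 from the Car1 and -1.75 from the Flt3 gate, Camp by -1.37 and -1.24, Ngp by -1.41 and -1.27, and Chil3 by -2.10 and -2.20. Lyz2, a lysozyme of myeloid cells, differed by -0.66 from the Flt3 gate. Late rapamycin mouse 1 held 19300.0 CPM of the neutrophil list in the Gata2 gate, 14600.0 in the Car1 gate and 11770.0 in the Flt3 gate. Without that mouse 9 genes differed from the Flt3 gate in place of 26, but 26 from the Car1 gate in place of 11. Without late rapamycin mouse 2 the counts were 87 and 79. The part of that mouse in these values was not tested further.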

How the results depend on the processing

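The number of genes called between neonatal and late rapamycin (23, with 15 higher and 8 lower) depended on several choices. Calls in all, higher and lower were 8, 4 and 4 with DESeq2, 300, 155 and 145 with no low-count filter, and 8, 3 and 5 with no replicate block for the day. They were 18, 9 and 9 with only the 4 mice compared, 38, 28 and 10 at 95% hashtag purity, 63, 39 and 24 with the stricter cell filter, and 46, 30 and 16 without the 2% of cells with most UMIs. They were 69, 41 and 28 in cells with Apoe, 46, 25 and 21 with equal cell numbers, and 33, 15 and 18 with at least 2 Gata2 UMIs. They were 1, 1 and 0 without stem-gene cells, 51, 32 and 19 without erythroid-gene cells, and 5, 5 and 0 without division-gene cells. In subsets chosen after seeing the data they were 53, 33 and 20 with only stem-gene cells and 67, 31 and 36 with only division-gene cells. The cause of these changes was not tested.

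Leaving out 1 mouse gave 0 to 425 calls, 0 to 178 higher and 0 to 247 lower, where a treatment with a lone mouse is assumed to vary like the others. Without a neonatal rapamycin mouse 0 of the 23 genes passed, without a late rapamycin mouse all 23 did, and without tamoxifen mouse 1 or 2, 3 and 11 did. Genes that differed from the Car1 gate numbered 18 with no low-count filter and 12 to 79 with 1 mouse left out, and those that differed from the Flt3 gate 42 and 9 to 87. Hsph1 reversed to 0.071 without stem-gene cells, and Cavin2 to -0.092 with the labels' mouse numbers as hashtag numbers. The called genes kept direction and call in 367 refits, lost the call but kept direction in 191, and reversed in 2. The difference in the gate's share of cells ran from -1.15 to 2.34 percentage points with 1 mouse left out. With 2 mice per treatment, small differences in low genes were not detectable at this depth.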

Other observations

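Some genes outside the report's groups showed values of interest in the Gata2 gate. Eif3j2, a paralog of an initiation factor subunit gene with which it may share reads, was at 15.3 and 13.8 CPM with neonatal rapamycin, 0.89 and 2.37 with late rapamycin, and 0.69 and 0.49 with tamoxifen. It passed against tamoxifen (edgeR adjusted p = 0.0429) and missed the threshold against late rapamycin (adjusted p = 0.0583). The late rapamycin values rest on 1 and 6 UMIs.

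Stem cell genes of the gate did not pass. Hlf, a regulator of stem cell maintenance, was at 274 and 501 CPM with neonatal rapamycin, 152 and 377 with late rapamycin and 425 and 467 with tamoxifen (0.56 ± 0.20 over late rapamycin, edgeR adjusted p = 0.330). Mecom was at 516 and 747 CPM against 506 and 863 (-0.10 ± 0.09, adjusted p = 0.753). The kinase receptor Kit was at 445 and 410.0 CPM against 242 and 356 (0.50 ± 0.14, adjusted p = 0.254). For Kit the groups did not overlap, which with so few mice adds no support, and for Hlf and Mecom they did. Of 14 stem cell markers tested 9 were above 0, with a median of 0.16.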
